A study of Mus musculus with 32 samples.

Results

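The livers described are those of mice in which Rps6, the gene of ribosomal protein S6, had been conditionally deleted, taken at 40 h after partial hepatectomy (5 samples) or at 0 h (4 samples). They were chosen by the time and genotype in their labels and make up 9 of the 32 samples of the series. All mice were male C57BL/6, 3 months old and homozygous for a floxed Rps6 allele. The Cre plus mice also carried Mx-Cre, a Cre recombinase driven by an interferon-responsive promoter, and Cre was induced with polyinosinic-polycytidylic acid, an inducer of interferon, per the submitters' design text. The same floxed mice without the transgene (Cre minus, 4 samples at 0 h and 4 at 40 h) show the response with Rps6 in place. Mx-Cre is not restricted to hepatocytes, and a sample of whole liver also holds the RNA of the other liver cells. The sources used here do not say whether Cre minus mice received the injection, how long before surgery it was given, or whether each sample came from its own mouse. If several came from 1 mouse, the p-values reflect only technical spread. No sham-operated liver is labelled, and so the loss of tissue and the surgery itself cannot be told apart.

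After partial hepatectomy the remaining hepatocytes leave quiescence, pass through G1 with an early wave of immediate early and acute phase genes, and then copy their DNA and divide. Ribosomal protein S6 is part of the small ribosomal subunit, and cells that cannot build this subunit can still make ribosome assembly factors and large-subunit proteins. The comparison of 40 h with 0 h asks how much of the regenerative programme is seen in livers with Rps6 deleted at a time when the Cre minus livers express genes of DNA synthesis and mitosis.

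Each sample was hybridised to 1 Affymetrix array, and a value is the log2 expression of a probe set, the group of short probes that reports a transcript. The 4 Cre plus arrays at 0 h were closely alike, with a mean correlation with their own group across probe sets of 0.9889 to 0.9905. The 5 arrays at 40 h were less alike, at 0.9425 (replicate D) to 0.9625 (replicate C). Replicates A and C of 40 h correlated slightly more with the 0 h arrays (0.9676 and 0.9727) than with their own group (0.9615 and 0.9625). The difference between the 3′ and 5′ probe sets of Actb, a measure of RNA integrity, was 1.05 ± 0.03 at 0 h (SD, n = 4) and 0.98 ± 0.16 at 40 h (SD, n = 5). Hepatocyte markers were abundant in every sample, and the mean of the 14 tested lay between 11.33 and 11.43 at 0 h and between 11.15 and 11.30 at 40 h. The number of arrays limits the precision.

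Rps6 itself checks the labels. In Cre plus livers its probe set, shared with the pseudogene Rps6-ps4, read 7.27, 6.97, 6.76 and 6.24 at 0 h in replicates A to D. At 40 h it read 7.57, 7.003, 7.05, 7.23 and 7.22 in replicates A to E. All 9 values lay below the 10.99 to 11.27 of Cre minus livers at 0 h and the 11.23 to 11.48 of Cre minus livers at 40 h. The difference between 40 h and 0 h did not pass the test in Cre plus livers, at 0.38 (SE 0.15, adjusted p = 0.102). Within batch PHX2 it was 0.72 and within PHX3 0.09. The sources used here do not say where the probe set lies relative to the deleted sequence.

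By 40 h the livers with deleted Rps6 had changed widely. Of 9249 probe sets tested with limma, 893 were called at a Benjamini-Hochberg adjusted p under 0.05, which is 9.66%. Differences are on the log2 scale, as 40 h minus 0 h, and every adjusted p given is from this fit. For a gene called in Cre plus livers at 40 h, each of the 9 arrays was left out in turn. Where its adjusted p is given, an omission that ended the call is given too. Without such a remark the call was kept under each omission. This holds for the first probe set given of a gene. Omissions are not given for further probe sets or for 20 h and 30 h. Of the 893 probe sets called, 332 were higher (3.59%) and 561 lower (6.07%), and 163 differed at least 2-fold, 67 of them higher and 96 lower. The called probe sets stood for 738 distinct genes, and all 893 had the same sign in PHX2 and in PHX3. The calls were made on these same arrays, so this agreement in sign is not an independent check. The 5 values at 40 h did not overlap the 4 at 0 h for 627 of the called probe sets, against 977 of all those tested (10.6%). Leaving out single arrays lowered the count by over 1.5 times in 5 cases, to 452 without 0 h replicate A, 524 without B, 528 without C and 559 without D, and to 494 without 40 h replicate B. With only these 2 groups in the fit, which then estimates the spread from 9 arrays, 322 were called, and with arrays weighted by their quality 1374. The PHX2 arrays alone gave 23 and the PHX3 arrays alone 355.

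In Cre minus livers the same time comparison called 441 probe sets (4.77%), 215 higher (2.32%) and 226 lower (2.44%). It called 241 without Cre minus 0 h replicate A, 248 without 0 h C, 291 without 40 h B, 887 with only its 2 groups fitted and 3 with PHX2 alone. The count called in both genotypes was 193, all in the same direction, which is 21.6% of the Cre plus calls and 43.8% of the Cre minus calls. Across the 9249 probe sets the differences of both genotypes correlated at r = 0.648, a description over genes that share arrays and are not independent. The interaction, which is the difference at 40 h in Cre plus minus that in Cre minus, was called for 54 probe sets (0.584%). All 54 were lower in Cre plus livers, and none was higher, although 255 of the 563 with an unadjusted p under 0.05 were. The Cre plus differences of the 54 lay between −0.84 and 0.45, and the Cre minus differences between −0.14 and 3.52. With array weights 185 interactions were called, 52 of them higher in Cre plus livers. The stricter filter on low values gave 35, all lower, PHX2 alone 1, which was higher, and PHX3 alone 26, of which 23 were lower.

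**Figure D1:**
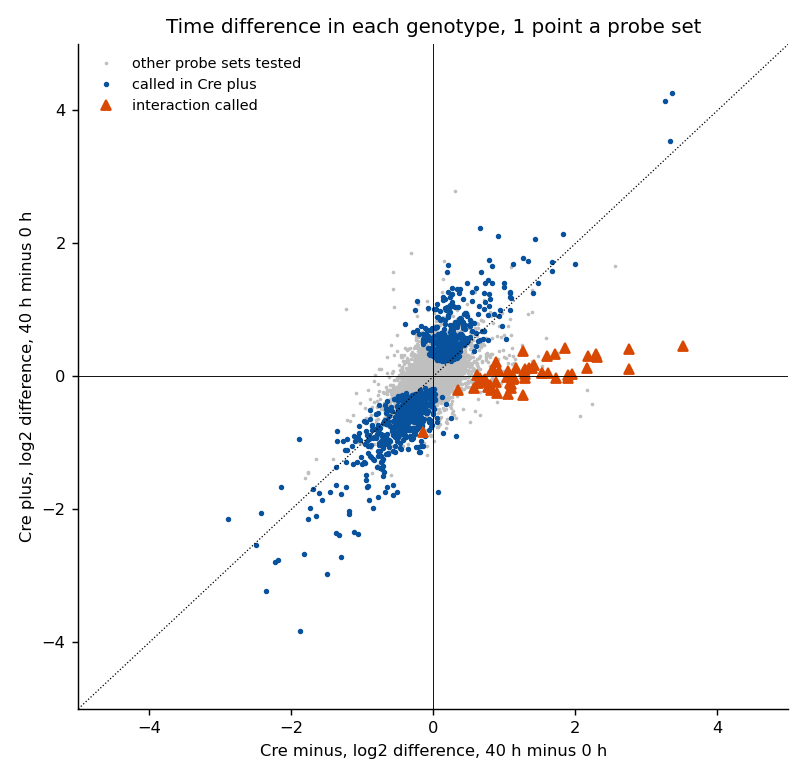
Each point is 1 of 9249 probe sets, with the log2 difference between 40 h and 0 h in Cre minus livers on the x axis and in Cre plus livers on the y axis. Blue points were called in Cre plus livers and orange triangles are the 54 interaction calls. The dotted line marks equal differences, and all 54 triangles lie below it, all but Notch1 at a Cre minus difference above 0.

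Almost no gene of DNA synthesis or mitosis passed the test in Cre plus livers. Of 41 DNA replication genes tested 1 was higher at 40 h, and of 42 mitosis genes none passed in either direction in limma's fit, against 9.66% of all probe sets. At an unadjusted p under 0.05, 4 replication genes were higher and 1 lower, and 1 mitosis gene was higher and 1 lower. The medians of the replication and mitosis lists were 0.08 and 0.03, beside 0.01 over all probe sets. Of the Cre minus counterparts, 27 of the 41 and 28 of the 42 were higher, against 2.32% of all probe sets, with medians of 0.60 and 0.76. Without 40 h replicate E 2 replication genes were higher in Cre plus livers, and without 40 h A or C 1 was lower. The interaction was called lower for 10 of the replication genes and 18 of the mitosis genes, against 0.584% of all probe sets. No mitosis gene was called in Cre plus livers in any of the 11 other fits of the settings compared, nor when any of the 9 arrays was left out.

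Cdk1, the kinase that drives entry into mitosis, read 5.83, 5.91, 5.91 and 5.79 in Cre plus livers at 0 h. At 40 h it read 6.25, 6.17, 6.31, 6.25 and 5.75. Replicate E lay below all 0 h values and the other 4 above them, so the groups overlapped. The Cre minus values of Cdk1 were 6.35, 6.16, 5.78 and 6.65 at 0 h and 8.78, 9.19, 8.08 and 8.07 at 40 h, with no overlap. The time difference was 0.29 in Cre plus livers (SE 0.23, adjusted p = 0.479) and 2.297 in Cre minus livers (adjusted p = 3.88e-07). The interaction was −2.01 (SE 0.33, adjusted p = 0.00101), and −1.52 within PHX2 and −2.24 within PHX3.

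Rrm2, a subunit of the ribonucleotide reductase that supplies deoxynucleotides, read 4.45, 4.33, 4.53 and 4.31 at 0 h and 4.47, 4.62, 5.07, 4.84 and 5.07 at 40 h in Cre plus livers. Cre minus livers read 4.93, 5.003, 4.65 and 4.77 at 0 h and 8.25, 7.74, 7.39 and 7.02 at 40 h. Cre plus values of 40 h were close to or slightly above rest, while every Cre minus value of 40 h stood well above it. The interaction was −2.35 (SE 0.38, adjusted p = 0.00101).

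Cdc20, the activator of the complex that triggers anaphase, read 6.22, 6.25, 6.21 and 6.29 at 0 h and 6.52, 6.44, 6.55, 6.28 and 6.06 at 40 h in Cre plus livers. Its Cre minus values ran from 6.24 to 6.53 at 0 h and from 7.83 to 9.02 at 40 h. Its interaction was −2.05 (SE 0.26, adjusted p = 7.13e-05), and −1.41 and −2.25 within PHX2 and PHX3. Stmn1, which encodes the microtubule regulator stathmin, had an interaction of −2.63 (adjusted p = 0.00141). For Ect2, an exchange factor needed for cytokinesis, the interaction was −1.92 (adjusted p = 0.001). The interactions of Pcna, the sliding clamp of DNA polymerase (−1.39, adjusted p = 0.00849), and Ccna2, cyclin A2 of S phase (−0.77, adjusted p = 0.0015), were smaller. Cdk1, Rrm2 and these other genes kept their interaction call when any of the 17 arrays of the 4 groups was left out.

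Mcm5, a subunit of the replicative helicase, read 6.92, 6.93, 6.995 and 6.98 at 0 h and 7.54, 7.32, 7.55, 7.001 and 6.996 at 40 h in Cre plus livers. Replicates D and E met the highest resting value, A, B and C lay above it, and the difference of 0.31 did not pass (adjusted p = 0.562). Its Cre minus values ran from 7.33 to 7.68 at 0 h and from 9.30 to 10.08 at 40 h. The interaction was −1.87 (adjusted p = 0.0266) and lost its call under 9 of the 17 omissions: Cre minus 0 h A and C, Cre plus 0 h C and D, Cre minus 40 h A, B and D, and Cre plus 40 h D and E, with adjusted p up to 0.0988. Top2a, the topoisomerase that untangles sister chromatids, had an interaction of −1.03 (adjusted p = 0.0111), or an adjusted p of 0.0521 without Cre minus 0 h replicate C. H2ax, a histone variant of the DNA damage response, had −1.95 (adjusted p = 0.0122), and within PHX2 it was −0.55 against −2.64 within PHX3. D17H6S56E-5, an annotated locus, had the lowest interaction, −3.07 (adjusted p = 0.0266), which lost its call under 10 of the 17 omissions, with adjusted p up to 0.0988. Those were Cre minus 0 h A and C, Cre plus 0 h A, C and D, Cre minus 40 h A, B and C, and Cre plus 40 h A and B. D17H6S56E-5 was dim in Cre plus livers, at 3.45 to 3.72 at 0 h and 3.73 to 4.85 at 40 h. It was also dim in Cre minus livers at 0 h, at 3.60 to 4.29. Of the groups compared only Cre minus 40 h, at 6.28 to 8.59, stood clear of this low level, and the interaction rests on that group. The second probe sets of Mcm5 and Stmn1 had interactions of 0.04 and 0.13, which were not called, and that of D17H6S56E-5 was too dim to be tested and read 3.53 to 3.83 across the 17 arrays.

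**Figure D2:**
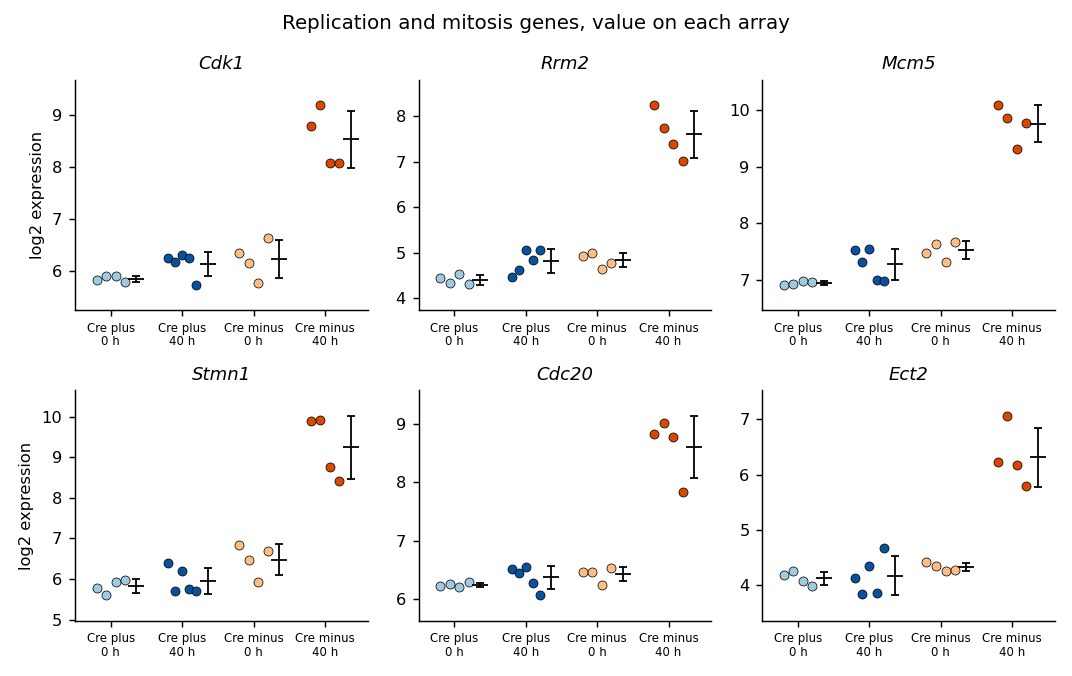
The log2 expression of 6 replication and mitosis genes is plotted for each array of the 4 groups, with the group mean and SD as a bar beside the points. Cre plus livers at 40 h stay near both resting groups, while all 4 Cre minus samples at 40 h lie above them in every panel.

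The replication gene called in Cre plus livers was Cdt1, which loads the helicase onto origins. It read 6.84, 6.75, 6.60 and 6.67 at 0 h and 7.20, 7.13, 7.09, 7.08 and 6.98 at 40 h, higher in 5 of 5 samples by 0.38 (SE 0.11, adjusted p = 0.0306, 1.30-fold). The rise in Cre minus livers was 1.26, and the interaction −0.88 (adjusted p = 0.00414). The Cre plus call was lost without 0 h B, C or D or 40 h A or B (adjusted p up to 0.0976), and a second probe set gave 0.20 without a call. Of 11 genes of deoxynucleotide supply 1 was called higher, against 3.59% of all probe sets. It was Ctps, which makes CTP, higher by 0.93 (SE 0.20, adjusted p = 0.00464, 1.90-fold), beside 0.77 in Cre minus livers. Without 40 h C 2 of the 11 were lower.

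Promoters of these genes were read for 3 short motifs of cell cycle promoters, since the replication and mitosis genes rose together in Cre minus livers. The motifs were the cell cycle homology region TTTGAA, the CCAAT box and the E2F-like TTTNNCGC, searched on both strands in the 250 bases before the transcription start (RefSeq, GRCm38.p6). Of 31 replication and mitosis genes with an interaction call on any probe set, 27 had a promoter in the table. TTTGAA was found in 10 of the 27 (37%), beside 16.3% of the promoters of all 27025 genes. CCAAT was found in 19 (70.4%), beside 34.5%, and TTTNNCGC in 4 (14.8%), beside 4.39%. A match is a description of the sequence and not a binding site, and no test was made. The promoters of Cdk1 and Cdc20 are shown because they hold both TTTGAA and CCAAT, and that of Mcm5 because it holds E2F-like matches on both strands that overlap each other.

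Cdk1 at chr10:69352913-69353162, minus strand, has its 2 TTTGAA and 3 CCAAT matches in capitals (CCAAT on the other strand reads ATTGG). Cdc20 at chr4:118437344-118437593, minus strand, has 1 TTTGAA and 2 CCAAT matches in capitals. In Mcm5 at chr8:75109259-75109508, plus strand, the capitals mark 2 overlapping E2F-like matches. The 2 E2F-like matches of Cdk1 and the 2 CCAAT matches of Mcm5 are left in lower case, and the Cdc20 promoter holds no E2F-like match. Each is written 5′ to 3′ and ends at the base before the start.
Cdk1: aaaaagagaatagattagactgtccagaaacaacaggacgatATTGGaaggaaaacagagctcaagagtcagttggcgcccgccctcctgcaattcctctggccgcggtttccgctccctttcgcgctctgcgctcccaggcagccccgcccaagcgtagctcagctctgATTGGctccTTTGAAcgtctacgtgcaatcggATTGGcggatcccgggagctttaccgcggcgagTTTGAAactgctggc
Cdc20: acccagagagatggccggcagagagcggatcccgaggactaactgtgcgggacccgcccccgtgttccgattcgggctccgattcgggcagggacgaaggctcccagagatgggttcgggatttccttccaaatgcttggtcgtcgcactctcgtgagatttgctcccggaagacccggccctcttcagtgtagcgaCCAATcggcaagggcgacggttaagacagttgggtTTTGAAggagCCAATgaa
Mcm5: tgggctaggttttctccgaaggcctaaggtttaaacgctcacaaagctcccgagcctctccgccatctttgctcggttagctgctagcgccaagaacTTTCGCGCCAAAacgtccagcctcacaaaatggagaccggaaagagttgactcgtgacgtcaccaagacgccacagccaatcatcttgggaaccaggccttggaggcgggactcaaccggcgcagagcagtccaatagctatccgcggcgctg

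Of 17 genes of G1 cyclins and the E2F-Rb pathway 1 rose in Cre plus livers, against 3.59% of all probe sets, and 6 in Cre minus livers, against 2.32%, or 3 without Cre minus 0 h replicate A. Ccnd1, cyclin D1 of G1, read 6.92, 7.72, 6.72 and 7.44 at 0 h and 8.58, 7.94, 8.92, 6.57 and 8.96 at 40 h in Cre plus livers. It was above rest in 4 samples and lowest of all 9 in replicate D, and the difference of 0.94 did not pass (SE 0.52, adjusted p = 0.28). Its Cre minus values ran from 6.74 to 7.24 at 0 h and from 8.21 to 8.97 at 40 h, without overlap. The Cre minus difference of 1.33 did not pass in the fit, which takes its spread from all 32 arrays (adjusted p = 0.197). The interaction −0.39 was not called (adjusted p = 0.999), while a second probe set moved by 0.11 in Cre plus livers. Myc, the growth-promoting transcription factor, read 3.35, 3.998, 3.48 and 3.53 at 0 h and 4.56, 5.26, 4.19, 5.40 and 4.95 at 40 h. All 5 values of 40 h lay above those of 0 h, by 1.32 (SE 0.35, adjusted p = 0.0196, 2.49-fold), beside 0.33 in Cre minus livers (adjusted p = 0.714). Myc in Cre minus livers ran from 3.63 to 3.86 at 0 h and from 3.72 to 4.28 at 40 h. All these values were low, beside medians of 5.91 to 5.97 on the Cre plus arrays, so the size of the rise is uncertain. Which arrays carried Myc over the filter on low values was not examined. The Myc call was lost without 0 h A, C or D or 40 h B, with adjusted p up to 0.0651, and its interaction was not called (adjusted p = 0.901).

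None of the 19 p53 targets tested passed limma's test between 0 h and 40 h in Cre plus livers, 2 were higher at an unadjusted p under 0.05, and their median was 0.06. Without 40 h replicate D 1 was called. Cdkn1a, the cyclin-dependent kinase inhibitor p21, already read 8.54, 8.90, 8.92 and 8.60 at 0 h and then 8.41, 9.18, 8.89, 10.56 and 9.95 at 40 h. Replicates B, D and E stood above every resting value, C among them and A below them, and the difference was 0.73 (SE 0.33, adjusted p = 0.173). It was 1.495 within PHX2, which holds D and E, and 0.11 within PHX3. Cdkn1a in Cre minus livers ranged from 7.74 to 7.91 at 0 h and from 8.08 to 8.24 at 40 h. A second Cdkn1a probe set differed by 0.62 in Cre plus livers (adjusted p = 0.362), and in Cre minus livers it ranged from 5.68 to 6.003 at 0 h and from 6.36 to 7.005 at 40 h, without overlap and without passing the test (0.99, adjusted p = 0.214). For Mdm2, the ubiquitin ligase of p53, the difference was 0.40 (adjusted p = 0.0651), and for Ccng1, cyclin G1, −0.06 (adjusted p = 0.919). Both already stood higher at 0 h in Cre plus than in Cre minus livers, without overlap. Mdm2 ran from 6.73 to 6.98 against 5.99 to 6.40, and Ccng1 from 4.79 to 5.33 against 4.12 to 4.21. In the list 1 interaction was called, lower in Cre plus livers, against 0.584% of all probe sets, and single omissions could end that call. After that of Cdkn1a, the next largest difference in the list was that of Ddit4, an inhibitor of mTORC1, at 0.50 (adjusted p = 0.394). Replicate D of 40 h read 8.32 for Ddit4 and the other 4 between 5.92 and 6.46.

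Genes of ribosome assembly were higher at 40 h. Of 60 ribosome biogenesis genes tested 21 rose and none fell, against 3.59% of all probe sets called higher. The number that rose was 2 in Cre minus livers, against 2.32% of all probe sets called higher there. It was 1 without Cre minus 0 h A, B or D or 40 h B or C. No interaction in the list was called. The list median was 0.31, beside 0.08 in Cre minus livers. Nop58, a core protein of the box C/D ribonucleoproteins that guide methylation of ribosomal RNA, read 4.73, 5.40, 4.79 and 5.13 at 0 h and 6.02, 6.35, 6.48, 6.92 and 6.35 at 40 h. These groups did not overlap, and the difference was 1.41 (SE 0.22, adjusted p = 0.000253, 2.66-fold), beside 0.83 in Cre minus livers (adjusted p = 0.0349).

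Gnl3, the nucleolar GTPase nucleostemin, read 5.03, 5.22, 5.32 and 5.87 at 0 h and 5.87, 6.75, 6.47, 6.94 and 6.86 at 40 h. Its highest resting value and lowest 40 h value met at 5.87, and the difference was 1.25 (SE 0.21, adjusted p = 0.000657, 2.39-fold). The Cre minus difference was 0.36 (adjusted p = 0.463), and the interaction of 0.90 did not pass (adjusted p = 0.434). Nhp2, of the box H/ACA particles that guide pseudouridylation, rose by 1.23 (SE 0.23, adjusted p = 0.00132, 2.35-fold). Eif6, which keeps free large subunits from joining small ones, rose by 1.19 (SE 0.27, adjusted p = 0.00585, 2.29-fold), beside 0.24 in Cre minus livers. The count of 21 fell to 11 without 0 h replicate A and 13 without C. In the fit of the PHX2 arrays alone it was 0 and in that of the PHX3 arrays 7.

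Of 28 other ribosomal protein genes tested, 10 rose and none fell in Cre plus livers, against 3.59% of all probe sets called higher, with a median of 0.29. In Cre minus livers 3 rose, against 2.32%, with a median of 0.25, and 1 without Cre minus 0 h A or C or 40 h B or D. Rplp0, a protein of the large-subunit stalk, read 11.84, 11.96, 11.56 and 11.74 at 0 h and 12.32, 12.40, 12.37, 12.01 and 12.39 at 40 h, higher by 0.51 (SE 0.09, adjusted p = 0.000546, 1.42-fold). Replicate D was the lowest at 40 h but still above rest. Rps10, of the small subunit, rose by 0.52 (SE 0.12, adjusted p = 0.00775, 1.43-fold) with an overlap between the groups. Ribosomal protein transcripts have many processed pseudogenes, so their probe sets may read more than 1 source. The count of 10 moved with single arrays, to 2 without 0 h A, 4 without C, 5 without D, 6 without 40 h C, 5 without E and 17 without D. It was 1 with only the 2 groups fitted, 19 with array weights, 0 in PHX2 and 1 in PHX3.

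Of 31 translation factors tested, 5 rose and 1 fell in Cre plus livers, against 3.59% and 6.07% of all probe sets. The only Cre minus call was lower, against 2.44% of all probe sets, and was lost without Cre minus 0 h replicate A. Etf1, the release factor that ends translation, read 7.89, 7.98, 7.99 and 8.02 at 0 h and 8.52, 9.14, 8.63, 9.28 and 9.15 at 40 h, a rise of 0.99 (SE 0.16, adjusted p = 0.000434, 1.98-fold) with no overlap. Its Cre minus difference was 0.10 (adjusted p = 0.829). The other 4 Etf1 probe sets moved by 0.11 to 0.70, and 1 of them was called. Eif5, which triggers GTP hydrolysis on the scanning small subunit, read 8.65, 8.75, 8.48 and 8.63 and then 9.24, 9.33, 9.30, 9.74 and 9.42, higher by 0.79 (SE 0.20, adjusted p = 0.0143, 1.72-fold). Eif5 in Cre minus livers moved by −0.40 (adjusted p = 0.352), and the interaction of 1.19 missed the threshold (adjusted p = 0.0607). Eif1ax, another factor of the scanning complex, rose by 0.79 (SE 0.15, adjusted p = 0.00141, 1.73-fold) on its brighter probe set and moved by −0.46 (adjusted p = 0.112) on another. The member that fell was Eif4ebp2, a repressor of cap-dependent initiation, which fell by 1.09 (SE 0.24, adjusted p = 0.00558, 2.13-fold), and by 0.29 and 0.49 on its other probe sets, both called. Without 0 h replicate C, Eif5 had an adjusted p of 0.0528 and 3 factors rose.

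Ifrd1, an interferon-related regulator of differentiation, read 4.64, 5.47, 5.13 and 4.98 at 0 h and 6.05, 6.01, 6.47, 6.90 and 6.29 at 40 h. Its rise of 1.32 (SE 0.30, adjusted p = 0.00578, 2.50-fold) was seen in 5 of 5 samples, against 0.26 in Cre minus livers (adjusted p = 0.735), with an interaction that did not pass (1.06, adjusted p = 0.636). Of 35 proteasome subunits 3 rose, against 3.59% of all probe sets, led by Psmd8 of the regulatory particle at 0.87 (SE 0.21, adjusted p = 0.00858, 1.83-fold). That count was 1 without 0 h A, B, C or D or 40 h B or E, and 5 without 40 h A or C. Among 29 chaperones of the endoplasmic reticulum 1 fell, against 6.07% of all probe sets called lower. It was Ero1b, an oxidase of disulfide formation, at −0.80 (adjusted p = 0.0408), a call lost under 8 of 9 omissions (all but 40 h E, adjusted p up to 0.103). In this list 2 fell without 40 h E and 1 rose without 40 h A or C. Hspa5, the chaperone BiP, ran from 9.58 to 10.22 at 0 h and from 8.98 to 10.98 at 40 h and did not pass (adjusted p = 0.762).

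**Figure D3:**
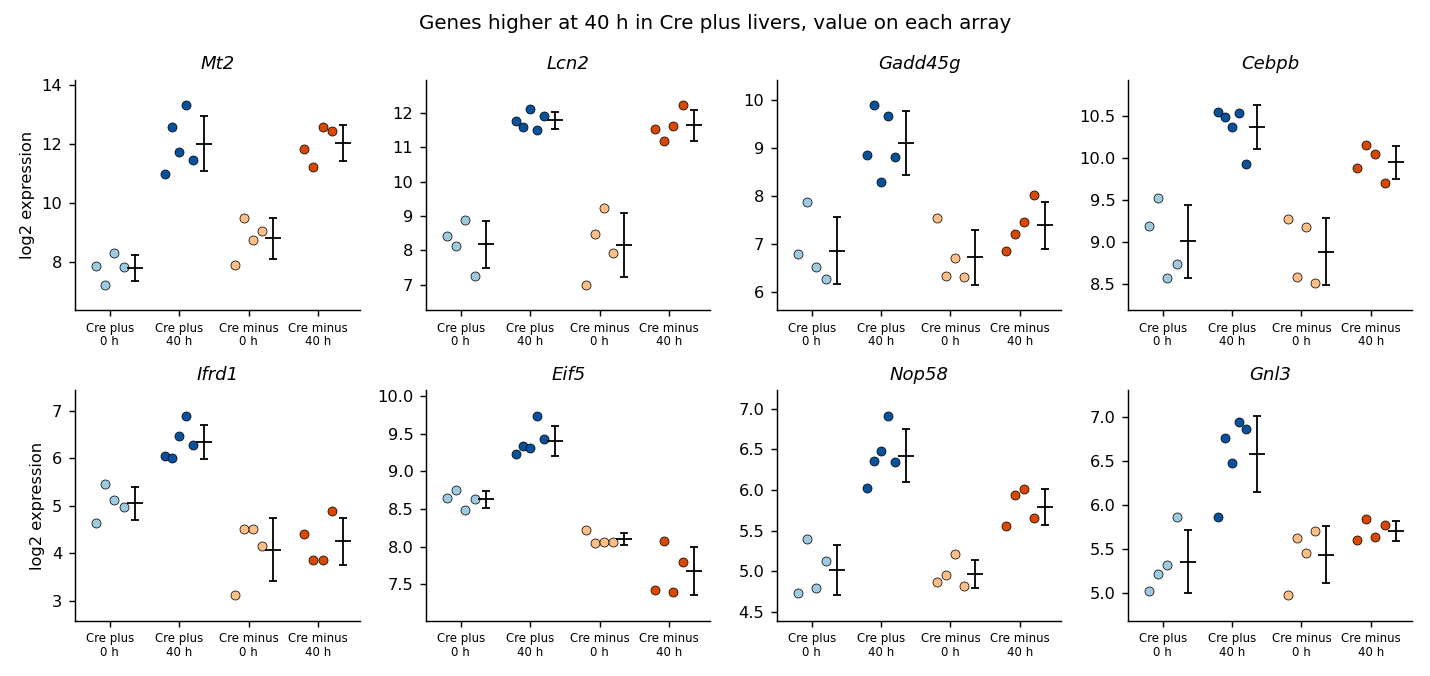
The log2 expression of 8 genes that rose in Cre plus livers is plotted for each array of the 4 groups, with the group mean and SD as a bar beside the points. Mt2, Lcn2 and Cebpb rose in both genotypes, and the Cre minus values of Gadd45g, Ifrd1, Eif5 and Gnl3 overlapped between times.

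The 3 largest rises in Cre plus livers were those of Mt2, Mt1 and Lcn2, which also rose in Cre minus livers. Mt2, a zinc- and copper-binding metallothionein, read 7.84, 7.22, 8.28 and 7.82 at 0 h and 10.96, 12.57, 11.73, 13.31 and 11.45 at 40 h. Every 40 h value was above every 0 h value, and the difference was 4.26 (SE 0.42, adjusted p = 5.64e-07, 19.2-fold), beside 3.36 in Cre minus livers. Mt1 rose by 4.13 (SE 0.48, adjusted p = 7.04e-06, 17.6-fold). Within PHX2 and PHX3 the rise of Mt2 was 4.33 and 4.22. Lcn2, the iron-chelator-binding lipocalin of the acute phase, read 8.43, 8.14, 8.88 and 7.25 at 0 h and 11.77, 11.59, 12.12, 11.49 and 11.92 at 40 h, higher by 3.54 (SE 0.56, adjusted p = 0.000327, 11.7-fold), with 3.33 in Cre minus livers, while a dimmer probe set moved by 0.35 without a call. Of 26 acute phase genes tested 9 rose (Mt2, Mt1, Lcn2, Saa2, Lrg1, Socs3, Orm1, Fgb and Fgg) and 1 fell (Saa3), against 3.59% and 6.07% of all probe sets, with a median of 0.49. The Cre minus livers had 6 rises and 1 fall in this list, against 2.32% and 2.44% of all probe sets, with a median of 0.32.

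The serum amyloid A genes moved apart. Saa2 read 9.28, 8.20, 8.90 and 8.35 at 0 h and 11.05, 10.28, 11.33, 9.38 and 10.06 at 40 h on the probe set with the larger rise, 1.69 (SE 0.46, adjusted p = 0.0208, 3.22-fold), and rose by 1.41 on a brighter one. Saa3 read 12.04, 11.80, 11.95 and 10.99 at 0 h and 8.79, 9.61, 8.35, 11.65 and 9.17 at 40 h, a difference of −2.15 (SE 0.54, adjusted p = 0.0119, 4.43-fold). Replicate D of 40 h, at 11.65, lay among the resting values, and the other 4 below them. Saa3 also fell in Cre minus livers, by 2.90 (adjusted p = 0.002). Saa1 and Saa2 are near-identical, and the probes may read both. The Saa2 call was lost without 0 h B or D (adjusted p up to 0.09), and that of Saa3 without 0 h A (adjusted p = 0.0546).

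Gadd45g, a growth arrest and stress response protein with the next largest rise called, read 6.78, 7.86, 6.52 and 6.26 at 0 h and 8.86, 9.89, 8.28, 9.66 and 8.81 at 40 h, higher by 2.24 (SE 0.39, adjusted p = 0.00079, 4.72-fold). Its Cre minus difference was 0.65 (adjusted p = 0.462), and the interaction did not pass (1.59, adjusted p = 0.474). Cebpd and Cebpb, transcription factors of the acute phase response, rose by 1.70 (SE 0.25, adjusted p = 0.000165, 3.24-fold) and by 1.34 (SE 0.19, adjusted p = 0.000129, 2.53-fold). Both also rose in Cre minus livers, by 1.12 and 0.99. Il1r1, the interleukin-1 receptor, read 6.31, 6.03, 6.12 and 6.16 at 0 h and 7.23, 8.02, 6.66, 9.57 and 7.81 at 40 h, with replicate D highest. Its rise of 1.75 (SE 0.47, adjusted p = 0.0192, 3.36-fold) lost the call without 0 h C or D or 40 h B or D (adjusted p up to 0.0615). Socs3, the feedback inhibitor of interleukin-6 signalling, rose by 1.01 (SE 0.28, adjusted p = 0.0215, 2.01-fold), again highest in replicate D, and lost the call without 0 h A or C or 40 h B or D (adjusted p up to 0.0795). A second Socs3 probe set rose by 1.12 (adjusted p = 0.0382).

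Nnmt, which methylates nicotinamide, read 9.22, 10.07, 10.02 and 9.56 at 0 h and 12.32, 11.73, 12.42, 11.17 and 11.36 at 40 h, higher by 2.06 (SE 0.32, adjusted p = 0.000318, 4.18-fold). St3gal5, the synthase of ganglioside GM3, rose by 2.11 (SE 0.40, adjusted p = 0.0016, 4.31-fold) and Apoa4, an apolipoprotein of triglyceride-rich particles, by 2.15 (SE 0.34, adjusted p = 0.000343, 4.43-fold). Actg1, cytoplasmic gamma actin, rose by 1.72 (SE 0.35, adjusted p = 0.00324, 3.30-fold), against 1.67 in Cre minus livers. Ly6d, a surface protein of lymphoid and epithelial cells, ran from 6.78 to 7.11 at 0 h and from 7.31 to 9.34 at 40 h, and its call (1.73, adjusted p = 0.0432) was lost under 8 of 9 omissions, all but 40 h replicate D, and a second probe set moved by −0.04.

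Cholesterol synthesis was the list with the largest fall. Of 16 genes tested 14 fell and none rose, against 6.07% of all probe sets called lower, and the list median was −1.65. In Cre minus livers 7 fell, against 2.44% of all probe sets, with a median of −1.36. Without Cre minus 0 h B or 40 h D that count was 3. It was 4 without Cre minus 0 h A or C or 40 h B or C. No interaction in the list was called. The pathway makes cholesterol from acetyl-CoA, and its genes are switched on together by the transcription factor SREBP2 when sterols are scarce. Without 0 h replicate B 9 genes fell and without 40 h replicate B 8. With only the 2 groups fitted 1 was called, in PHX2 alone 4 and in PHX3 alone 2.

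Replicate C stood apart from the other 4 samples at 40 h. Idi1, the isomerase of the isoprenoid building blocks, read 10.49, 10.70, 9.996 and 10.51 at 0 h and 7.58, 6.91, 10.59, 7.35 and 6.98 at 40 h. Replicate C, at 10.59, was at the resting level, and A, B, D and E were far below it. The difference over all 5 was −2.66 (SE 0.58, adjusted p = 0.00475, 6.34-fold), and without replicate C it was −3.22 (adjusted p = 0.000393). Hmgcs1, the synthase of the HMG-CoA that the pathway commits to mevalonate, read 8.98, 9.38, 8.93 and 8.74 at 0 h and 5.58, 5.92, 8.95, 6.14 and 6.36 at 40 h. Replicate C was again among the resting values, and the difference was −2.54 (SE 0.57, adjusted p = 0.00559, 5.81-fold), or −3.01 without it (adjusted p = 0.000944).

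Sc5d, the sterol C5 desaturase, read 8.23, 8.58, 8.14 and 7.78 at 0 h and 6.19, 4.58, 7.72, 5.73 and 5.32 at 40 h on its brighter probe set, a difference of −2.35 (SE 0.43, adjusted p = 0.00132, 5.10-fold). Msmo1, which removes methyl groups from sterols, read 8.999, 8.90, 8.93 and 8.83 at 0 h and 5.85, 5.63, 9.19, 7.44 and 5.99 at 40 h. C was above all resting values there, D lay between, and the difference of −2.14 (SE 0.56, adjusted p = 0.0155, 4.42-fold) missed the threshold without 40 h replicate B (adjusted p = 0.0566). The Cre minus differences were −1.82 for Idi1 (adjusted p = 0.0895), −2.50 for Hmgcs1 (adjusted p = 0.0122) and −1.77 for Msmo1 (adjusted p = 0.0884). The other 10 genes that fell did so by between −0.45 and −2.10, and Tm7sf2 (−0.46, adjusted p = 0.0777) and Hsd17b7 (−0.02, adjusted p = 0.97) did not pass.

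**Figure D4:**
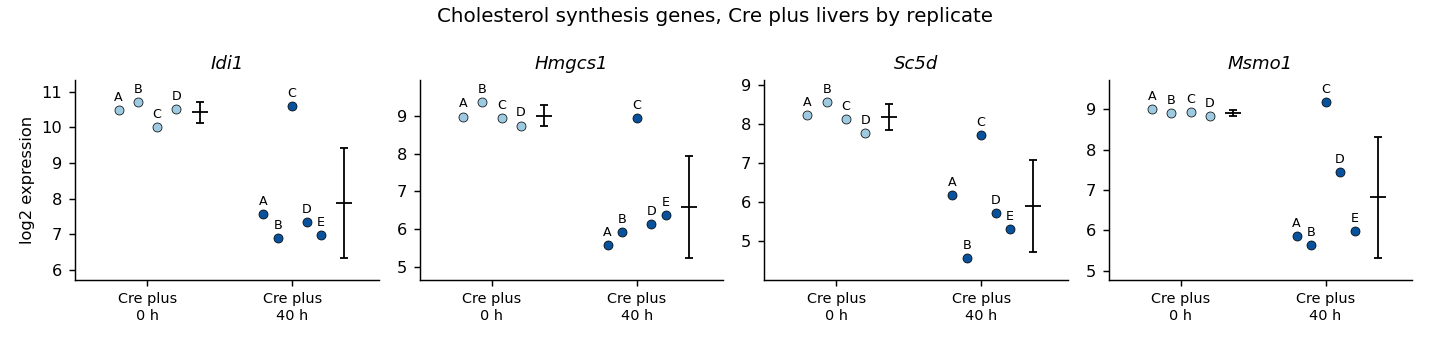
The log2 expression of 4 cholesterol synthesis genes is plotted for each Cre plus array at 0 h and 40 h, labelled by replicate, with the group mean and SD as a bar. Replicate C of 40 h stays at or near the resting level in all 4 panels, and the other replicates lie below it.

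The promoters of the sterol genes were searched for the same motifs, since SREBP2 acts at its targets with the CCAAT-binding factor NF-Y. Of the 14 genes that fell 11 had a promoter in the table, and 10 of these held CCAAT (90.9%), beside 34.5% of all promoters. None of the 11 held TTTGAA or TTTNNCGC. Those of Hmgcs1 at chr13:119690101-119690350 and Idi1 at chr13:8885356-8885605, both on the plus strand of GRCm38.p6 and ending before the start, are shown because these genes fell most, with CCAAT matches in capitals (3 and 2, all on the other strand as ATTGG).
Hmgcs1: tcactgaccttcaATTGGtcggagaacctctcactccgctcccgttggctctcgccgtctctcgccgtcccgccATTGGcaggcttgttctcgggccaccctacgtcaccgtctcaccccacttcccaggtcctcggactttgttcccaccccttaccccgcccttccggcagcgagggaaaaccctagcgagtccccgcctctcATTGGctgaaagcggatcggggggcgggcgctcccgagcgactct
Idi1: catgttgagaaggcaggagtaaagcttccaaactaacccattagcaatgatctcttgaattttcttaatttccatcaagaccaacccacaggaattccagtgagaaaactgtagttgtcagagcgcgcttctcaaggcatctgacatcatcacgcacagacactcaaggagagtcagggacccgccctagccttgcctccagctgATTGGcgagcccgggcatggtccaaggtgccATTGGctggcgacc

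Fatty acid synthesis fell less evenly. Of 18 lipogenesis genes tested 7 fell and none rose (1 without 40 h replicate D), against 6.07% of all probe sets called lower, with a median of −0.57. In Cre minus livers 4 fell, against 2.44% of all probe sets, with a median of −0.58. That count was 1 without Cre minus 0 h A or C or 40 h B. It was 2 without Cre minus 0 h B or 40 h C. Fads1, the delta-5 desaturase, read 9.40, 9.59, 9.61 and 9.21 at 0 h and 8.24, 7.81, 9.15, 8.78 and 7.60 at 40 h, a difference of −1.14 (SE 0.23, adjusted p = 0.00288, 2.21-fold) with no overlap. Srebf1, the gene of the lipogenic factor SREBP1, read 10.04, 10.60, 10.68 and 9.70 at 0 h and 8.44, 7.36, 8.38, 10.59 and 7.51 at 40 h, with replicate D at rest and the other 4 below. Its difference was −1.74 (SE 0.53, adjusted p = 0.0359, 3.33-fold) and that of Cre minus livers 0.06, with an interaction that did not pass (−1.80, adjusted p = 0.683). Srebf1 lost the call without 0 h A, B or C or 40 h B or E (adjusted p up to 0.126). Fasn, fatty acid synthase, had a difference of −1.37 (SE 0.37, adjusted p = 0.0198, 2.58-fold) and lost the call without 0 h B or C (adjusted p up to 0.0951). Mid1ip1, an activator of acetyl-CoA carboxylase and among the 12 lowest differences, read 8.41, 9.26, 8.85 and 7.93 and then 6.61, 5.52, 7.67, 5.95 and 5.69, a difference of −2.38 (SE 0.42, adjusted p = 0.000887, 5.19-fold), and fell by 0.96 on a second probe set (adjusted p = 0.000645). The count of 7 was 3 without 0 h A, B or C and 4 without 40 h B.

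In fatty acid oxidation and PPARA targets 3 of 32 genes rose and 1 fell, against 9.66% of all probe sets called. Angptl4, a fasting-induced inhibitor of lipoprotein lipase, rose by 0.93 (SE 0.21, adjusted p = 0.00622, 1.91-fold) on its brightest probe set, by 1.41 on a second (adjusted p = 0.00362), and moved by 0.20 on another, which was not called. Eci2, of unsaturated fatty acid oxidation, rose by 0.94 (SE 0.23, adjusted p = 0.00929, 1.91-fold). Plin2, the coat protein of lipid droplets, read 11.01, 11.21, 10.90 and 11.54 at 0 h and 11.73, 13.39, 11.64, 12.73 and 12.61 at 40 h, higher by 1.27 (SE 0.38, adjusted p = 0.0346, 2.41-fold). Plin2 in Cre minus livers moved by 0.21 (adjusted p = 0.856), and the interaction of 1.06 did not pass (adjusted p = 0.898). The Plin2 call was lost under 7 of 9 omissions, all but 40 h A and C, with adjusted p up to 0.115. The 1 gene that fell, Hadh of the oxidation cycle, had a difference of −0.74 (SE 0.16, adjusted p = 0.00451, 1.67-fold), and the number lower was 2 without 0 h C and 4 without 40 h A.

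Many genes of the adult hepatocyte's own functions were lower at 40 h. The lowest difference of all was that of Hsd3b5, a male-specific hydroxysteroid dehydrogenase, which read 10.10, 9.81, 7.54 and 10.22 at 0 h and 5.82, 4.45, 5.39, 6.99 and 5.12 at 40 h. Resting replicate C was far below the other 3 yet above all 40 h values, and the difference was −3.83 (SE 0.73, adjusted p = 0.00179, 14.2-fold), or −4.52 without that replicate. Hsd3b5 in Cre minus livers moved by −1.88 (adjusted p = 0.199). Hsd3b2, a related enzyme, fell by 2.72 (SE 0.51, adjusted p = 0.00157, 6.58-fold), and their probes may read other family members. Keg1, a glycine acyltransferase-like protein, read 8.40, 7.75, 7.51 and 8.70 at 0 h and 5.62, 4.41, 5.60, 4.80 and 5.32 at 40 h, a difference of −2.97 (SE 0.43, adjusted p = 0.000131, 7.82-fold). The Cre minus values of Keg1 ran from 8.36 to 8.65 at 0 h and from 6.78 to 7.49 at 40 h.

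Inmt, which methylates indole amines, read 10.11, 10.55, 10.97 and 10.46 at 0 h and 6.13, 7.78, 5.69, 9.11 and 7.26 at 40 h, a difference of −3.23 (SE 0.58, adjusted p = 0.00106, 9.40-fold), beside −2.36 in Cre minus livers. It was −2.53 within PHX2 and −3.79 within PHX3. Tsc22d1, a leucine zipper protein, fell by 2.76 (SE 0.37, adjusted p = 5.89e-05, 6.78-fold), beside −2.19 in Cre minus livers. Car3, a carbonic anhydrase abundant in male liver and in fat, read 12.04, 11.68, 11.25 and 11.69 at 0 h and 7.45, 9.68, 6.74, 10.82 and 9.35 at 40 h, with D closest to rest. Its difference of −2.79 (SE 0.70, adjusted p = 0.0122, 6.93-fold) was −1.39 within PHX2 and −3.90 within PHX3, and had an adjusted p of 0.0563 without 0 h replicate A.

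Of 23 cytochrome P450 genes 7 fell and none rose, against 6.07% of all probe sets called lower, with a median of −0.35. In Cre minus livers 5 fell, against 2.44%, with a median of −0.20, and 3 or 4 fell with 1 array left out. Cyp2f2, an enzyme of periportal hepatocytes, read 11.57, 11.55, 11.52 and 11.57 at 0 h and 10.19, 9.16, 10.85, 10.93 and 9.95 at 40 h, a difference of −1.30 (SE 0.26, adjusted p = 0.00283, 2.46-fold). The Cre minus values of Cyp2f2 ran from 11.45 to 11.62 at 0 h and from 10.32 to 10.67 at 40 h. The Cre plus count of P450 genes that fell was 2 without 0 h B and 4 without 40 h B. Of 17 genes of bile acid synthesis and transport 6 fell and none rose, against the same 6.07%, with a median of −0.53. In Cre minus livers 3 fell, against 2.44%, with a median of −0.25, and 1 fell without Cre minus 0 h A. Hsd3b7, an early enzyme of the pathway, fell by 1.12 (SE 0.20, adjusted p = 0.00105, 2.17-fold) and Slc27a5, which activates bile acids for conjugation, fell by 0.73 (SE 0.15, adjusted p = 0.00374, 1.66-fold). Cyp8b1, the 12-alpha-hydroxylase that sets the share of cholic acid, fell by 2.06 (SE 0.54, adjusted p = 0.0161, 4.16-fold), with a difference of −1.69 without 0 h A (adjusted p = 0.0864), and moved by −2.43 in Cre minus livers (adjusted p = 0.00995).

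Among 44 plasma proteins and apolipoproteins 15 fell and 2 rose in Cre plus livers, against 6.07% and 3.59% of all probe sets, with a median of −0.31. In Cre minus livers 4 fell and 2 rose, against 2.44% and 2.32%, with a median of −0.10. The Cre minus number lower was 2 without Cre minus 0 h A or B or 40 h B and 1 without 0 h C or 40 h D, and the number higher was 1 without 0 h A, C or D or 40 h A, B or D. Ttr, the carrier transthyretin, read 11.53, 11.27, 11.34 and 11.46 at 0 h and 9.81, 9.04, 10.03, 10.74 and 9.03 at 40 h, a difference of −1.64 (SE 0.33, adjusted p = 0.00253, 3.12-fold). Its Cre minus difference was −0.57 (adjusted p = 0.443), and the interaction did not pass (−1.07, adjusted p = 0.738). Serpinf2, the plasmin inhibitor, fell by 0.79 (SE 0.19, adjusted p = 0.00871, 1.72-fold), while a second, dimmer probe set moved by 0.49 without a call. Serpina6, the corticosteroid carrier, fell by 1.74 (SE 0.48, adjusted p = 0.0234, 3.35-fold), a call lost without 0 h A or B or 40 h E (adjusted p up to 0.0784), and fell by 1.004 on a second probe set (adjusted p = 0.0137). Alb, albumin, ran from 13.74 to 13.78 at 0 h and from 13.35 to 13.76 at 40 h and did not pass (−0.14, adjusted p = 0.211). The number that rose, Apoa4 and Apoc2, was 1 without 0 h A, B or D or 40 h B or E.

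Amino acid metabolism moved in both directions, with 3 of 30 genes higher and 4 lower, against 3.59% and 6.07% of all probe sets. Otc, the ornithine transcarbamylase of the urea cycle, read 10.48, 10.40, 10.23 and 10.36 at 0 h and 9.09, 9.15, 9.48, 9.96 and 8.97 at 40 h, a difference of −1.04 (SE 0.18, adjusted p = 0.000887, 2.06-fold). The Cre minus values of Otc ran from 10.18 to 10.60 at 0 h and from 9.02 to 9.81 at 40 h. Ivd, of leucine breakdown, fell by 0.89 (SE 0.18, adjusted p = 0.00229, 1.86-fold), and the number lower was 2 without 0 h C or 40 h B or E. Tat, tyrosine aminotransferase, a glucocorticoid-responsive enzyme, read 12.04, 12.05, 11.90 and 11.46 at 0 h and 12.57, 12.62, 12.67, 13.08 and 12.35 at 40 h, higher by 0.81 (SE 0.16, adjusted p = 0.00186, 1.75-fold). Of 32 NRF2 targets 8 fell and 1 rose, against 6.07% and 3.59%, and the median was −0.20. In Cre minus livers 3 fell, against 2.44%, with a median of −0.16, and 1 to 4 fell with 1 array left out. Gsta3, a glutathione transferase, fell by 1.86 (SE 0.32, adjusted p = 0.00069, 3.64-fold). Cat, catalase, fell by 1.29 (SE 0.19, adjusted p = 0.000219, 2.44-fold), and Gclc, of glutathione synthesis, fell by 1.17 (SE 0.24, adjusted p = 0.00357, 2.25-fold). The dimmer second Cat probe set moved by 0.10 in Cre plus livers. On the brighter one the Cre minus values of Cat ran from 9.91 to 10.20 at 0 h and from 9.03 to 9.58 at 40 h. Without 0 h A or 40 h B 5 NRF2 targets fell in Cre plus livers, and the 1 that rose was lost without 0 h A, B, C or D or 40 h B, D or E.

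In glucose metabolism 3 of 19 genes rose and 1 fell, against 3.59% and 6.07% of all probe sets. Ldha, lactate dehydrogenase, rose by 0.55 (SE 0.13, adjusted p = 0.00825, 1.46-fold). Aldoa, the muscle-type aldolase, read 9.07, 9.24, 9.30 and 9.33 at 0 h and 10.36, 10.29, 10.33, 9.57 and 10.26 at 40 h, higher by 0.93 (SE 0.26, adjusted p = 0.0236, 1.90-fold), with replicate D lowest of the 40 h values and the call lost without 0 h A or B or 40 h B (adjusted p up to 0.0793), and by 0.75 on a second probe set (adjusted p = 0.0301). The number higher was 1 without 0 h A, B or 40 h B and 5 without 40 h D, and the 1 lower was lost without 0 h B, C or D or 40 h B or D. Of 18 genes of the growth hormone and IGF axis 3 fell and 1 rose, against the same shares. Igfals, the acid-labile subunit that holds IGF1 in plasma, read 9.17, 9.41, 9.45 and 9.44 and then 9.0003, 7.64, 8.99, 7.98 and 8.05, a difference of −1.05 (SE 0.27, adjusted p = 0.0145, 2.07-fold) with an adjusted p of 0.054 without 40 h B. Calls lower in that list fell to 1 or 0 without 0 h A, B or D or 40 h A, B or C, and the 1 higher was lost without 0 h A, B or C or 40 h A, C or D.

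**Figure D5:**
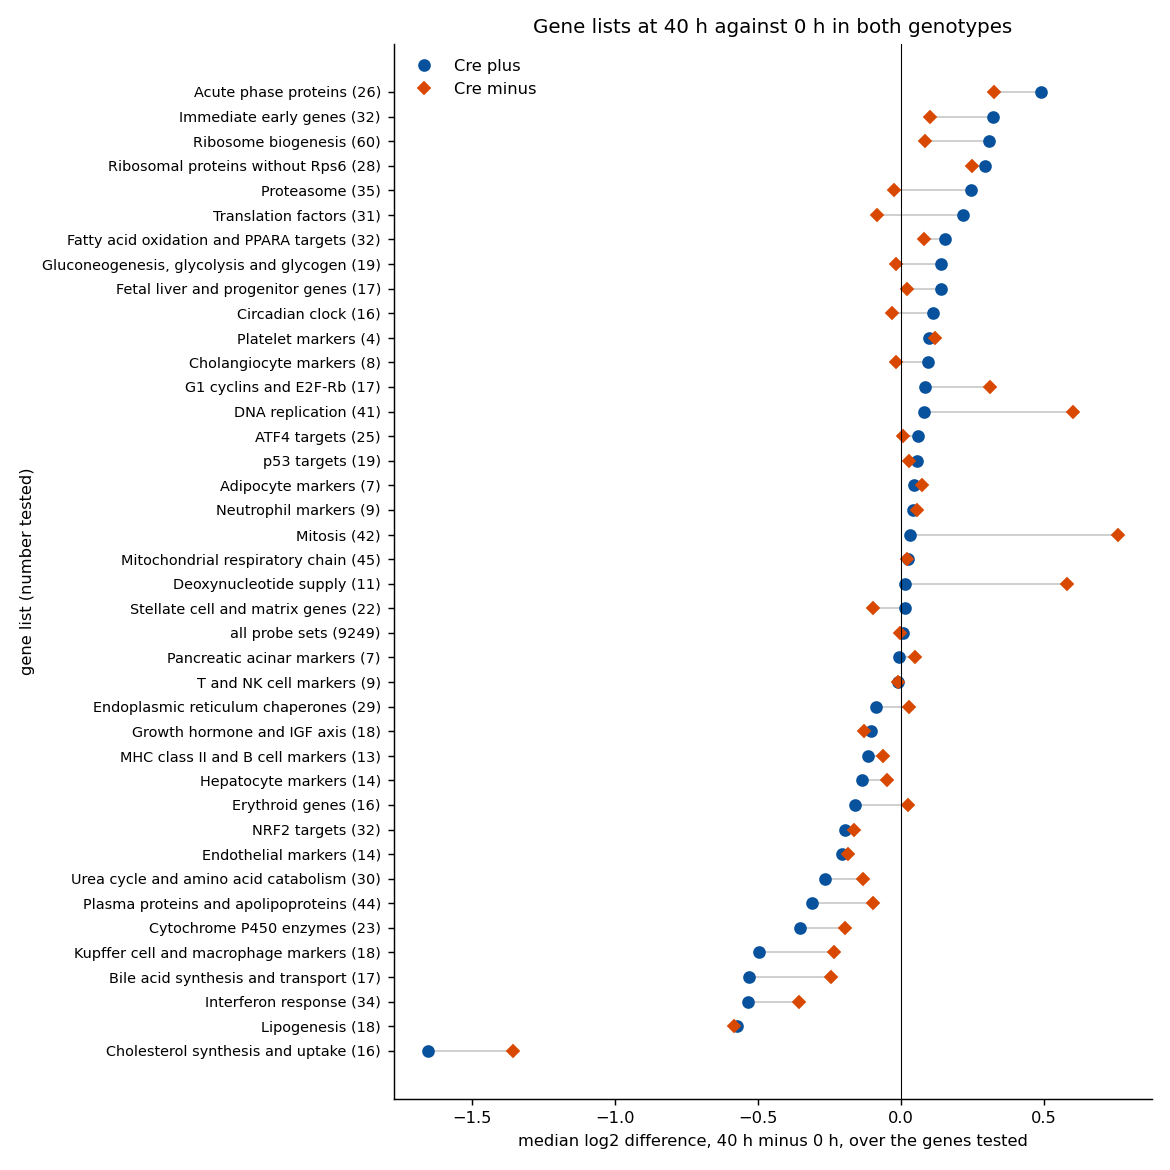
For each gene list, with the number of genes tested in brackets, the median log2 difference between 40 h and 0 h is plotted for Cre plus (circle) and Cre minus (diamond) livers. DNA replication, mitosis and deoxynucleotide supply have Cre minus medians of 0.58 to 0.76 and Cre plus medians of 0.02 to 0.08, and the cholesterol list is lowest in both.

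Interferon-responsive genes fell from 0 h to 40 h. Of 34 tested 14 fell and none rose, against 6.07% of all probe sets called lower, with a median of −0.53. In Cre minus livers 5 fell, against 2.44%, with a median of −0.36, and that count was 1 without Cre minus 40 h D, 2 without 0 h A, C or D and 3 without 0 h B or 40 h B. Ifi47, an interferon-inducible GTPase, read 5.82, 6.03, 5.66 and 6.44 at 0 h and 4.52, 4.28, 4.75, 4.62 and 4.52 at 40 h, a difference of −1.48 (SE 0.23, adjusted p = 0.000318, 2.79-fold) with no overlap, beside −0.95 in Cre minus livers (adjusted p = 0.0239). Ifit1, an antiviral RNA-binding protein, read 6.67, 6.70, 5.93 and 7.74 at 0 h and 5.81, 4.74, 5.88, 4.75 and 4.74 at 40 h, with resting replicate D highest. It fell by 1.66 (SE 0.46, adjusted p = 0.0228, 3.16-fold), a call lost without 0 h D or 40 h B (adjusted p up to 0.121), and that of Ifit3 (−1.16, adjusted p = 0.0159) was lost without 0 h D (adjusted p = 0.0869). Cxcl9, an interferon-gamma-induced chemokine, fell by 1.66 (SE 0.46, adjusted p = 0.0217, 3.16-fold) with replicate D of 40 h at 6.40 and the other 4 between 4.39 and 4.67. Its call was lost without 0 h A or D or 40 h B or E (adjusted p up to 0.11). The count of 14 was 9 without 0 h A, 4 without 0 h D and 6 without 40 h B, 3 with only the 2 groups fitted, 0 in PHX2 and 4 in PHX3.

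Markers of Kupffer and endothelial cells moved in the same direction. Of 18 Kupffer cell and macrophage markers 8 fell and none rose, against 6.07% of all probe sets called lower, 17 had a negative difference, and their summed linear level was 3009 to 4222 at 0 h and 2052 to 2911 at 40 h. In bulk tissue fewer cells of a type and less RNA per cell cannot be told apart. Mpeg1, a pore-forming protein of macrophages, read 8.59, 8.56, 8.22 and 8.40 at 0 h and 7.71, 6.89, 7.75, 7.64 and 7.20 at 40 h, a difference of −1.01 (SE 0.23, adjusted p = 0.00706, 2.01-fold). Clec4f, a lectin specific to mouse Kupffer cells, had a difference of −0.66 (adjusted p = 0.0472) and lost its call under 7 of 9 omissions, all but 0 h C and 40 h A, with adjusted p up to 0.225. The count of 8 was 1 without 0 h A, 3 without B, 2 without 40 h B and 5 without C. Of 14 endothelial markers 5 fell, 11 had a negative difference, and their summed level was 2348 to 2507 at 0 h and 1862 to 2083 at 40 h. Kdr, the receptor of vascular endothelial growth factor, read 6.09, 6.26, 6.32 and 6.29 at 0 h and 5.79, 5.70, 5.78, 5.96 and 5.65 at 40 h, a difference of −0.45 (SE 0.08, adjusted p = 0.000802, 1.37-fold). The endothelial count was 1 without 0 h A, 3 without B and 2 without 40 h B. In Cre minus livers 1 Kupffer marker fell (2 without Cre minus 40 h C) and 2 endothelial markers did (1 without Cre minus 0 h B or C or 40 h B, 0 without 40 h D). The share of all probe sets called lower in Cre minus livers was 2.44%. The part of these cells in the interferon result was not tested.

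Of 14 hepatocyte markers 3 fell (Ttr, Cyp2e1 and Asgr2) and 1 rose (Tat), against 6.07% and 3.59% of all probe sets. Their summed linear level was 78143 to 80607 at 0 h and 67165 to 78561 at 40 h, with an overlap. Of 7 adipocyte markers 1 fell, Car3, which lost its call without 0 h replicate A, while 1 rose without 40 h A and 2 without 40 h C. Their summed level was 3319 to 5073 at 0 h and 877 to 2992 at 40 h in Cre plus livers, without overlap, and 4506 to 5280 and 1001 to 2375 in Cre minus livers. Car3 made up most of this sum at 0 h in both genotypes, so the fall of the sum mainly repeats that of Car3. The hormone genes Lep and Retn of adipocytes did not pass, at −0.02 and 0.04, and the list median was 0.04.

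No gene passed among 13 MHC class II and B cell, 9 neutrophil, 9 T and NK cell, 22 stellate cell and matrix, or 4 platelet markers in limma's fit, and at an unadjusted p under 0.05 1 neutrophil gene was higher and 1 gene each of the MHC class II and B cell list and the T and NK cell list lower. Without 40 h replicate A 1 neutrophil gene was called, and without 40 h D 1 T and NK cell gene. S100a8 of neutrophils came nearest, at 0.97 (adjusted p = 0.0525). The cholangiocyte, progenitor, acinar and erythroid lists held few calls each. Over all probe sets 3.59% were called higher and 6.07% lower. Krt19, a keratin of cholangiocytes and progenitors, read 4.29, 4.20, 4.29 and 4.17 at 0 h and 4.78, 5.22, 4.40, 4.82 and 4.70 at 40 h, higher by 0.56 (SE 0.13, adjusted p = 0.0085, 1.47-fold), and it was the 1 of 8 cholangiocyte markers called (2 without 40 h E, and 1 lower without 40 h A or C). Its values were low beside medians of 5.91 to 5.97 on these arrays. A second Krt19 probe set overlapped between times, at 4.20 to 4.48 at 0 h and 4.25 to 4.75 at 40 h. Krt8, a keratin of hepatocytes and progenitors, was higher by 1.16 (SE 0.31, adjusted p = 0.0186, 2.24-fold) and lost the call without 0 h D or 40 h B (adjusted p up to 0.0562), which left 1 of the 17 fetal and progenitor genes called in place of 2. Afp, alpha-fetoprotein, did not pass (0.29, adjusted p = 0.142, and 0.09 on a second probe set). Cela1, a pancreatic elastase, fell by 1.25 (SE 0.27, adjusted p = 0.00481, 2.38-fold), the only call among 7 acinar genes. Of 16 erythroid genes 1 fell, Car1, at −0.52 (adjusted p = 0.0329), a share near the 6.07% of all probe sets. Its call was lost without 0 h A, B or D or 40 h C or E (adjusted p up to 0.141).

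The remaining lists had few calls, against 3.59% of all probe sets called higher and 6.07% lower. Of 16 circadian clock genes 2 rose and 1 fell, of 45 respiratory chain genes 1 rose and 3 fell, of 32 immediate early genes 2 rose (Socs3 and Myc) and of 25 ATF4 targets 1 rose (Cebpb). Nr1d1, the clock repressor REV-ERB alpha, read 8.13, 7.86, 7.62 and 9.08 at 0 h and 7.92, 7.27, 7.05, 7.70 and 6.55 at 40 h and fell by 0.86 (SE 0.25, adjusted p = 0.0312, 1.81-fold), a call lost without 0 h A or D or 40 h B, C or E (adjusted p up to 0.165), while 2 clock genes fell without 40 h D. The clock genes that rose numbered 0 without 0 h A, C or D or 40 h B or D and 1 without 0 h B. Respiratory chain genes that fell numbered 0 or 1 without any 0 h array or 40 h B, D or E, and 6 without 40 h C, and those that rose 0 without 0 h A and 2 without 40 h E. The ATF4 count was 2 without 40 h A or C. The immediate early count was 0 without 0 h A, C or 40 h B and 1 without 0 h D or 40 h D. The median of the immediate early list was 0.32, and 27 of its 32 differences were positive. It was 0.61 within PHX2 and 0.09 within PHX3, beside 0.10 in Cre minus livers. At an unadjusted p under 0.05 in limma's fit 8 of these genes were higher and 0 lower. The sources used here do not give the hour of day at which livers were taken.

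Livers at 20 h (4 samples) and 30 h (3 samples) were set against the same 0 h livers, so their values stand beside those of 40 h and are not independent of them. Mt2 was higher by 4.93 at 20 h, 4.93 at 30 h and 4.26 at 40 h. Gadd45g was higher by 2.86, 2.98 and 2.24 at the successive times, and Nop58 by 1.36, 1.61 and 1.41. Ifrd1 was higher by 1.56, 1.42 and 1.32. All of these passed the test at each time. Idi1 and Keg1 were called lower at each time, Idi1 at −2.38, −2.40 and −2.66 and Keg1 at −3.22, −3.27 and −2.97. Inmt reached −1.22 at 20 h (adjusted p = 0.227), −2.16 at 30 h and −3.23 at 40 h. The value of Cdkn1a was 0.79 (adjusted p = 0.161), 1.38 (adjusted p = 0.021) and 0.73. Cdk1 was at −0.06, 0.12 and 0.29, with no call at any of these times, and Rrm2 at 0.93 (adjusted p = 0.0337), 0.42 and 0.41.

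Notch1, the receptor of the Notch pathway, was the 1 of the 54 interaction calls that fell in Cre plus livers, and it was chosen after its values were seen. It read 8.05, 7.80, 7.58 and 7.75 at 0 h and 6.99, 6.85, 7.15, 6.81 and 7.01 at 40 h in Cre plus livers, with no overlap. Its Cre minus values were 7.04, 7.02, 6.84 and 6.94 at 0 h and 6.97, 6.74, 6.80 and 6.80 at 40 h. Cre plus values of 40 h lay near those of Cre minus and the resting Cre plus values above them. The difference was −0.84 in Cre plus (SE 0.09, adjusted p = 1.31e-06) and −0.14 in Cre minus livers (adjusted p = 0.469), and the interaction −0.69 (SE 0.13, adjusted p = 0.00379). A dimmer probe set moved by −0.18 in Cre plus livers (adjusted p = 0.256).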

How the data were processed

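RNA of each of the 32 liver samples was hybridised to 1 Affymetrix array. The deposited values are log2 expression per probe set, and RMA is the method that the submitters' processing notes name. The sources used here give neither its version nor whether all arrays were normalised in 1 run, and the log base was taken from the range of the values. Groups and the batches PHX2 and PHX3 came from the labels. A probe set was tested if 3 or more arrays placed it above their 30th percentile, which held for 9249 of 12422. One limma model (limma 3.58.1, R 4.3.3) held the 8 groups and the batch over 32 arrays, with 23 residual degrees of freedom, Benjamini-Hochberg adjustment over all probe sets within a comparison and a threshold of 0.05. The script was tested on simulated data. Names came from the platform annotation, and probe sets of several genes were not named, except that of Rps6. Named genes were a set of core genes, the 12 highest and 12 lowest called differences with 1 sign in both batches, up to 4 called members of each list (or, with none, the 2 largest differences), and the 8 lowest interaction calls; Notch1 was added. For a list, a gene stood for its brightest probe set. The genes and lists were chosen with earlier results of these data known. Alternatives were another normalization, filter, batch term, array weights, replicate block, single batches and leaving out each array.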

Additional observations from a re-analysis of the deposited data

Results flagged for a closer look

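Single samples stood apart from their group in 14 of 278 group tests by Dixon's ratio (5.04%), and chance gives about 1 in 20. Of these, 6 were replicate D of 40 h, 3 replicate A of 0 h and 2 replicate C of 40 h. Replicate D of 40 h was high for Ddit4 (8.32), Cxcl9 (6.40) and Slc27a5 (10.51) and low for Ly6d (7.31), Rplp0 (12.01) and Aldoa (9.57). Replicate C of 40 h was high for Idi1 (10.59) and Hmgcs1 (8.95), where the other 4 samples lay at 6.91 to 7.58 and 5.58 to 6.36. Replicate A of 0 h was low for Ctps (6.96) and Igfals (9.17) and high for Cat (10.25). Replicate C of 0 h was low for Hsd3b5 (7.54), replicate A of 40 h for Alb (13.35) and replicate E of 40 h for Cdk1 (5.75).

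The change from 0 h to 40 h differed between Cre plus and Cre minus livers, by limma's interaction term, for 12 of the named genes. The interaction, on the log2 scale, was −3.07 for D17H6S56E-5, −2.63 for Stmn1, −2.35 for Rrm2, −2.05 for Cdc20, −2.01 for Cdk1 and −1.95 for H2ax. It was −1.92 for Ect2, −1.87 for Mcm5, −1.39 for Pcna, −1.03 for Top2a, −0.77 for Ccna2 and −0.69 for Notch1. Of the 12, 9 kept the call when any of the 17 arrays was left out, and Mcm5, D17H6S56E-5 and Top2a did not.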

How the results depend on the processing

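The count of 893 probe sets called in Cre plus livers was 322 with only its 2 groups fitted, 1374 with array weights, 23 with PHX2 alone, 355 with PHX3 alone and 163 with a 2-fold minimum, and it ranged from 452 to 907 when 1 array was left out. The Cre minus count of 441 was 887, 1965 and 3 with the groups alone, array weights and PHX2 alone, 101 with the 2-fold minimum, and 241 to 401 with 1 array left out. The 54 interactions were 35 with the stricter filter, 185 with array weights, 1 with PHX2 alone, 26 with PHX3 alone, 35 with the 2-fold minimum and 37 to 69 with 1 array left out. The cause of these changes was not tested, beyond the fewer arrays or probe sets that a setting holds. The fits without the batch term, without the filter, with centring or quantile normalization, and without the 3 arrays of lowest correlation stayed within 1.5 times in Cre plus livers. The replicate letters do not pair the samples, with correlations of same-lettered Cre plus deviations of 0.18, −0.06, −0.13 and 0.12. With the replicate block 701, 414 and 43 were called for the Cre plus, Cre minus and interaction comparisons. Of 108 named calls, 55 were kept under each single omission, and 53 under each of the 9 other settings that were not single batches. No named call changed sign. The few arrays limit small differences most.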
